A study of Mus musculus with 20 samples.

Results

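The genes described here are 9 members of the complement system: C1qa, C1qb, C1qc, C4b, C3, Cfb, Serping1, C3ar1 and C5ar1. They were chosen by symbol, and all 9 were found among the 43629 genes of the deposited count table. RNA was measured in nuclei from mouse spinal cord that had been sorted on NeuN, the neuronal nuclear protein encoded by Rbfox3. The healthy group and the group with experimental autoimmune encephalomyelitis (EAE), an immune-mediated inflammation of the central nervous system, each gave 5 NeuN-positive and 5 NeuN-negative libraries, 20 in all. EAE mice were sampled on day 15 after active immunization. No source used here gives the immunogen, strain, sex, age or any treatment of the healthy mice, and no transgene or deletion is named for any group. Libraries carry the numbers 1 to 5 in each group. Nothing in the labels says whether each number is a separate mouse, so the p-values below measure the spread between these libraries.

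Complement is a protein cascade of innate immunity. In the classical pathway the C1q complex, built from the products of C1qa, C1qb and C1qc, recognises a surface and starts cleavage of C4 and then C3, and fragments of C3 mark the surface for phagocytes. Factor B, from Cfb, forms the C3-cleaving enzyme of the alternative pathway, and the C1 inhibitor, from Serping1, blocks the proteases of the C1 complex. Small fragments released from C3 and C5 act on the receptors encoded by C3ar1 and C5ar1. In the central nervous system microglia are known as a main source of C1q, astrocytes can make C3 and C4, and C1q and C3 take part in the removal of synapses.

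Total counts were 12076860 to 30499828 in the healthy and 7072200 to 18686997 in the EAE NeuN-positive libraries. They were 8336330 to 37689267 in the healthy and 3149209 to 15525441 in the EAE NeuN-negative libraries. Levels are CPM, counts set against library size after TMM scaling of all 20 libraries, and are listed in the order of replicates 1 to 5. Rbfox3 was at 329 CPM in healthy NeuN-positive and 29.5 CPM in healthy NeuN-negative nuclei, and at 203 and 27.2 CPM in EAE. The share of mitochondrially encoded counts was higher in EAE than in healthy libraries, with medians of 1.22% against 0.302% in NeuN-positive and 7.94% against 1.44% in NeuN-negative nuclei. Among NeuN-positive libraries EAE 2, EAE 4 and healthy 3 stood apart, at 9.35%, 5.30% and 3.0%. Results were also computed without both libraries of these 3 numbers, although in NeuN-negative nuclei the shares ran on without a gap, with 7.94% in EAE 5, which was kept, and 9.83% in EAE 4. In bulk nuclei of this kind, fewer nuclei of a cell type and less RNA per nucleus cannot be told apart.

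Of the 9 genes, 8 were tested in every comparison, and Cfb had too few counts to be tested in any. In EAE against healthy NeuN-positive nuclei 7 of the 8 rose, where 6.55% of all 16675 genes tested were called higher. In NeuN-negative nuclei 7 of the 8 also rose, where 15.1% of 17604 genes were called higher. A gene was called at an adjusted p under 0.05 with edgeR's quasi-likelihood test. The median log2 fold change of the 8 was 3.97 in NeuN-positive nuclei, against -0.03 over all genes tested, and 2.77 in NeuN-negative nuclei, against 0.05. The 2 genes that missed the threshold were Serping1 in NeuN-positive and C4b in NeuN-negative nuclei. In each sort, the lowest EAE library lay above the highest healthy library for all 7 genes that rose. This separation in the higher direction was found for 5.42% of all genes tested in NeuN-positive and 6.5% in NeuN-negative nuclei. Without EAE 2, EAE 4 and healthy 3, 7 of the 8 genes rose in NeuN-positive and all 8 in NeuN-negative nuclei. The same counts were found with the mitochondrial share of each library as a covariate.

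**Figure D1:**
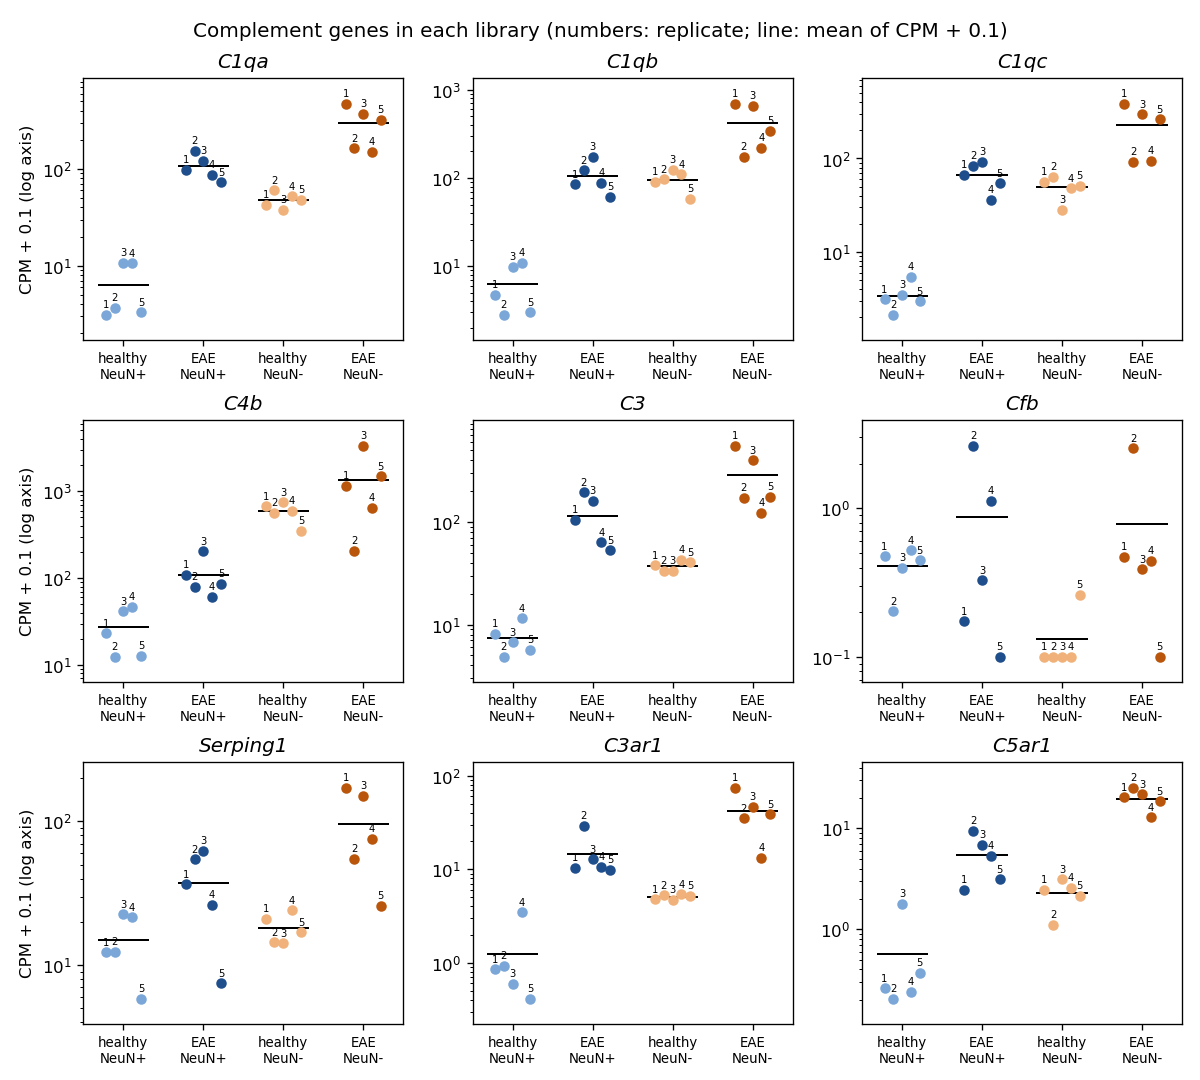
Level of each of the 9 complement genes in every library, as CPM on a log axis after adding 0.1, in the 4 groups of 5 libraries. Points are libraries and the horizontal bars are group means; for C1qa the 5 EAE NeuN-positive libraries sit between 72.7 and 155 CPM and the 5 healthy ones between 3.0 and 10.6 CPM.

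The C1q chain genes lie side by side on chromosome 4, all on the minus strand: C1qb (ENSMUSG00000036905, 136880129 to 136886187), C1qc (ENSMUSG00000036896, 136889804 to 136893065) and C1qa (ENSMUSG00000036887, 136895917 to 136898803), in the GENCODE annotation of GRCm38. Their products are the A, B and C chains of the C1q molecule. No 50-base stretch of one chain's transcript was found in another's, so sequence sharing at that length does not mix their counts.

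C1qa in NeuN-positive nuclei was at 3.0, 3.55, 10.6, 10.5 and 3.20 CPM in the healthy libraries and at 97.8, 155, 121, 86.3 and 72.7 CPM in the EAE libraries. The lowest EAE library was well above the highest healthy one. Its log2 fold change was 4.23 ± 0.48 (SE, 5 against 5 libraries; adjusted p = 8.2e-05). In NeuN-negative nuclei C1qa was at 42.7, 60.2, 37.8, 52.1 and 48.1 CPM in healthy and at 471, 164, 369, 150.3 and 319 CPM in EAE mice. The groups did not overlap, although EAE 2 and EAE 4 were the lowest of the EAE libraries. The log2 fold change there was 2.88 ± 0.34 (adjusted p = 2.39e-05).

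C1qb followed the same order of groups. Its healthy NeuN-positive levels were 4.60, 2.69, 9.80, 10.9 and 2.89 CPM, and its EAE NeuN-positive levels were 84.3, 122, 173, 87.9 and 60.9 CPM. As for C1qa, healthy 3 and healthy 4 were the highest of the healthy NeuN-positive libraries. In NeuN-negative nuclei C1qb was at 90.6, 96.3, 123, 109.7 and 58.2 CPM in healthy and at 695, 174, 654, 219 and 339.5 CPM in EAE mice. The log2 fold change was 4.18 ± 0.48 in NeuN-positive nuclei (adjusted p = 9.74e-05) and 2.32 ± 0.41 in NeuN-negative nuclei (adjusted p = 0.000737).

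C1qc had the lowest healthy NeuN-positive levels of the chains, at 3.0, 2.0, 3.37, 5.27 and 2.85 CPM. It stood at 66.2, 82.8, 92.5, 35.7 and 54.2 CPM in EAE NeuN-positive nuclei, which gave a change of 4.45 ± 0.36 in log2 terms (adjusted p = 9.96e-06). By p-value it ranked 10 among all genes tested in that comparison. In NeuN-negative nuclei C1qc was at 56.1, 63.5, 28, 47.6 and 50.7 CPM in healthy and at 386, 92.3, 297, 94.6 and 262 CPM in EAE mice, and the log2 change was 2.45 ± 0.37 (adjusted p = 0.000232). The 3 chains moved closely together, with Pearson correlations of log2 CPM over the 20 libraries of 0.97 for C1qa with C1qb and 0.98 for C1qa with C1qc and for C1qb with C1qc. After removal of the group means the correlations were 0.84, 0.79 and 0.69. These values are descriptions over libraries that share groups and sorts.

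RefSeq gave promoters for 5 of the 9 genes (C1qb, C1qc, C3, C3ar1 and C5ar1). The 250 bases before the transcription start were searched on both strands for AGGAAGT, a core of sites of the myeloid factor PU.1, and for TTGCNNAA of the C/EBP factors. They were also searched for TTCNNNGAA, the GAS element of STAT factors, for GAAANNGAA, a core of the interferon response element, and for the consensus site of NF-kB. The sequences of C1qb, C3 and C5ar1 are shown because they stand for the recognition, the central and the receptor step and because each holds a match. They are from RefSeq, GRCm38.p6, read 5′ to 3′ on the genes' minus strand, with the matches in capitals, at chr4:136886201-136886450, chr17:57228137-57228386 and chr7:16259339-16259588.
C1qb: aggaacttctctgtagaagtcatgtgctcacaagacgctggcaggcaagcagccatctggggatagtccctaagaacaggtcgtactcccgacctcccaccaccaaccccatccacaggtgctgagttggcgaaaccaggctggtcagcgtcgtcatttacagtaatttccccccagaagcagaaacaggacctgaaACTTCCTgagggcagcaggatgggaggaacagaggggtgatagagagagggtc
C3: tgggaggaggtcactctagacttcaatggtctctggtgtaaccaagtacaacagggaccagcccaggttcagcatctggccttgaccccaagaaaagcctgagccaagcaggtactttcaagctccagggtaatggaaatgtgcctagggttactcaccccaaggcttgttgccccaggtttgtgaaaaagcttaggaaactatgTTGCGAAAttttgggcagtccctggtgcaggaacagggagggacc
C5ar1: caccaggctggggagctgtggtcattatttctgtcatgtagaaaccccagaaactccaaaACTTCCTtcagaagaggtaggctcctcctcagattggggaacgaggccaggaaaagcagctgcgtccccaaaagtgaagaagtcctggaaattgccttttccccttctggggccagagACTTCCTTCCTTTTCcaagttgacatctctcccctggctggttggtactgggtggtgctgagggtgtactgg

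In C1qb the PU.1 core lay 53 bases before the start, on the opposite strand as ACTTCCT, and C1qc held a copy 195 bases before its start. C5ar1 held 2 copies, 190 and 72 bases before the start, and an interferon response core 66 bases before it that shares 1 base with the second copy. The RefSeq start of C5ar1 is also 1 of its GENCODE starts, but the outermost GENCODE start lies further out, so that 202 of the 250 bases are inside the gene as GENCODE draws it. By that annotation the first C5ar1 copy lies in an exon and the other matches of C5ar1 in an intron. In C3 a C/EBP match, TTGCGAAA, lay 45 bases before the start, and in C1qc an NF-kB match lay 41 bases before it, within an exon in GENCODE, where 151 bases of the C1qc window are inside the gene. Over 32851 windows of the same length, 7.69% held the PU.1 core, 9.56% the C/EBP, 7.02% the GAS, 7.25% the NF-kB and 7.13% the interferon motif. The matches are letters in a window and no binding was measured. The letters of the GAS element were not in any of the 5 windows, and C3ar1 held no match.

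C4b (ENSMUSG00000073418, chromosome 17, 34728380 to 34743882, minus strand) encodes complement C4, the component cleaved after C1q binds. It rose in NeuN-positive nuclei from a mean of 27.1 ± 15.9 (SD, n = 5) to 108 ± 56.3 CPM. The healthy libraries were at 23.0, 12.2, 41.3, 46.3 and 12.7 CPM and the EAE libraries at 109, 78.9, 203, 60.8 and 85.3 CPM. The groups did not overlap, and the log2 fold change was 2.02 ± 0.43 (adjusted p = 0.00907). In NeuN-negative nuclei C4b was abundant before disease, at 669.7, 566, 746, 599 and 347 CPM. The EAE libraries there spread from 206 to 3337 CPM, at 1152, 206, 3337, 638 and 1485 CPM, and overlapped the healthy ones. The log2 fold change was 1.39 ± 0.56 (adjusted p = 0.071), and without the NeuN-negative library of EAE 2 alone it was 1.68 (adjusted p = 0.0160). Without the 3 numbers of high mitochondrial share it was 2.12 (adjusted p = 0.0022). C4b stayed uncalled in 14 of 19 alternatives there, and over all 19 the log2 fold change went as low as 0.81 and the adjusted p up to 0.232.

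C4b has a near copy, C4a, in the same gene cluster and orientation. The GENCODE annotation used here types C4b as protein coding and C4a as a processed transcript. The longest transcripts of the pair were identical at 96.0% of 5378 aligned positions, and 35.2% of the 50-base stretches of C4b also occur in C4a. How the authors counted reads that fit both genes is not stated in any source used here, so the split between them is uncertain. A stretch of the C4b coding sequence where they differ most is shown, from base 2761 to base 2820 of the C4b transcript. The 13 mismatched bases are in capitals.
C4b: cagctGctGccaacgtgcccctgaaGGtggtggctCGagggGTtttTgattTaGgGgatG
C4a: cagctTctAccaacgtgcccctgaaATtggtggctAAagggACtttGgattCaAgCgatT

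The counts of the pair ran in opposite directions between the sorts of healthy mice. C4b was lower in healthy NeuN-positive than NeuN-negative nuclei, by a log2 difference of -4.49 ± 0.48 (adjusted p = 1.24e-05). C4a was higher there, at 13.6 ± 3.78 against 5.44 ± 2.08 CPM, a log2 difference of 1.26 ± 0.38 (adjusted p = 0.0165). In EAE C4a was at 7.12 CPM in NeuN-positive and 6.08 CPM in NeuN-negative nuclei, and its log2 fold change against healthy was -0.88 ± 0.42 (adjusted p = 0.184) and 0.52 ± 0.53 (adjusted p = 0.485).

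C3 (ENSMUSG00000024164, chromosome 17, 57203970 to 57228136, minus strand) encodes the central component, on which all activation routes converge. Its healthy NeuN-positive levels were 8.03, 4.73, 6.63, 11.4 and 5.55 CPM, and its EAE NeuN-positive levels were 104, 194, 160.1, 63.0 and 53.0 CPM. Every EAE library was above every healthy one, and the log2 change was 4.12 ± 0.43 (adjusted p = 4.83e-05). The healthy NeuN-negative libraries lay close together, at 37.6, 33.2, 33.4, 42.7 and 40.2 CPM. The EAE NeuN-negative libraries were at 552, 171, 399, 123 and 176 CPM, with a log2 change of 3.16 ± 0.38 (adjusted p = 2.64e-05). Here too the lowest EAE library was above the highest healthy one.

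Cfb (ENSMUSG00000090231, chromosome 17, 34856374 to 34862518, minus strand), the factor B gene, was barely counted. Its 5 libraries together held 28 counts in healthy NeuN-positive, 29 in EAE NeuN-positive, 6 in healthy NeuN-negative and 21 in EAE NeuN-negative nuclei. Of the 6 healthy NeuN-negative counts all were in replicate 5, and 17 of the 29 EAE NeuN-positive counts were in replicate 2. The EAE to healthy ratio in NeuN-negative nuclei was 6.54, with a 95% interval of 2.55 to 19.8 that covers counting error only. These counts are uncertain in another way. The annotated readthrough gene Gm20547, named here after its values were seen, covers 2246 of the 2825 exon bases of Cfb on the same strand, and it was at 0 in all 20 libraries. How reads that fit both genes were counted is not given in the sources used here.

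Serping1 (ENSMUSG00000023224, chromosome 2, 84765387 to 84775444, minus strand), the C1 inhibitor gene, was in healthy NeuN-positive nuclei at 12.1, 12.2, 22.5, 21.4 and 5.71 CPM. The EAE NeuN-positive libraries were at 36.5, 54.3, 62.3, 26.3 and 7.37 CPM. Replicate 5 was the lowest in both groups, and the groups overlapped. The log2 fold change was 1.42 ± 0.51 (adjusted p = 0.087). Without EAE NeuN-positive 5 the adjusted p was 0.0316, without healthy NeuN-positive 3 it was 0.0489, and with DESeq2 it was 0.0333. Serping1 stayed uncalled in 14 of 19 alternatives there, with adjusted p up to 0.28. In NeuN-negative nuclei Serping1 was at 21.0, 14.3, 14.1, 23.9 and 16.8 CPM in healthy and at 171, 55.0, 151, 75.6 and 25.8 CPM in EAE mice. The groups did not overlap there, although EAE 5 was only just above the highest healthy library, and the log2 fold change was 2.66 ± 0.40 (adjusted p = 0.000215).

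C3ar1 (ENSMUSG00000040552, chromosome 6, 122847138 to 122856161, minus strand) encodes the receptor of the small C3 fragment. In healthy NeuN-positive nuclei its 5 libraries held 99 counts in all, 48 of them in replicate 4, and it passed the count filter through the EAE libraries. Its levels were 0.749, 0.828, 0.495, 3.37 and 0.308 CPM in healthy and 10.3, 29.2, 12.7, 10.4 and 9.74 CPM in EAE NeuN-positive nuclei. The groups did not overlap, and the log2 fold change was 3.82 ± 0.66 (adjusted p = 0.00201), 4.74 without healthy NeuN-positive 4 and 3.22 without the 3 numbers of high mitochondrial share. In NeuN-negative nuclei C3ar1 was at 4.65, 5.14, 4.60, 5.28 and 5.08 CPM in healthy and at 74.3, 34.9, 46.3, 13.1 and 38.5 CPM in EAE mice. The healthy libraries were nearly equal, and the log2 fold change was 3.34 ± 0.36 (adjusted p = 8.46e-06).

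C5ar1 (ENSMUSG00000049130, chromosome 7, 16246743 to 16259540, minus strand) encodes the receptor of the small C5 fragment, known on neutrophils and other myeloid cells. The 5 healthy NeuN-positive libraries held only 32 counts in all, 17 of them in replicate 3, so this gene too was tested because of its EAE libraries. Its levels were 0.161, 0.103, 1.68, 0.140 and 0.270 CPM in healthy and 2.37, 9.40, 6.77, 5.28 and 3.03 CPM in EAE NeuN-positive nuclei. The log2 fold change was 3.72 ± 0.84 (adjusted p = 0.0128), 5.09 without healthy NeuN-positive 3 and 4.62 without the 3 numbers. In NeuN-negative nuclei C5ar1 was at 2.35, 1.01, 3.03, 2.47 and 2.05 CPM in healthy and at 20.3, 25.2, 21.7, 12.8 and 18.5 CPM in EAE mice. That log2 fold change was 3.52 ± 0.42 (adjusted p = 2.4e-05), and no EAE library came near the healthy range.

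**Figure D2:**
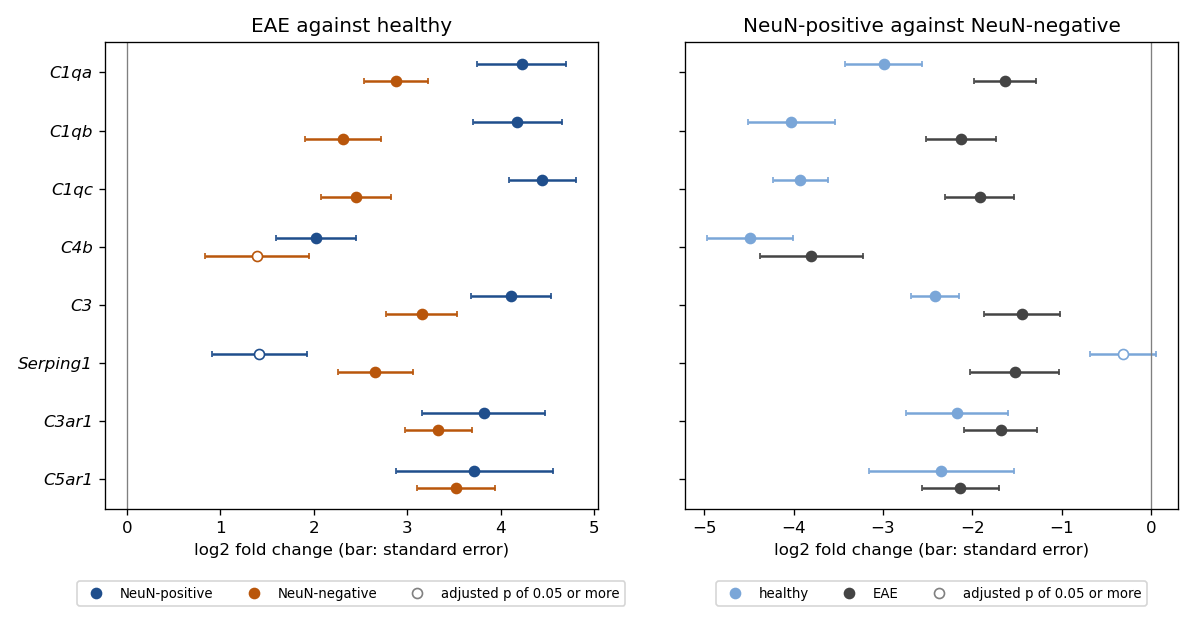
Log2 fold change with its standard error for the 8 tested genes, EAE against healthy in each sort (left) and NeuN-positive against NeuN-negative in each condition (right). Filled points had an adjusted p under 0.05; on the left only C4b in NeuN-negative and Serping1 in NeuN-positive nuclei are open, and on the right only Serping1 in healthy mice.

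The sorts were then compared within each condition. These comparisons use the same libraries as the EAE comparisons. The main tests treated the libraries of the sorts as unpaired, and the replicate number as a block was an alternative. In healthy mice 7 of 8 genes were lower in NeuN-positive than in NeuN-negative nuclei, where 23% of all genes tested were lower. C4b (-4.49 ± 0.48) and C1qb (-4.03 ± 0.49, adjusted p = 3.08e-05) had the largest log2 differences, followed by C1qc (-3.93 ± 0.31, adjusted p = 1.24e-06) and C1qa (-2.99 ± 0.43, adjusted p = 0.000123). C3 was lower by a smaller margin (-2.42 ± 0.27, adjusted p = 1.64e-05), as was C3ar1 (-2.17 ± 0.57, adjusted p = 0.00772). C5ar1 was called at -2.34 ± 0.81 (adjusted p = 0.0308), with overlapping libraries, and the adjusted p was 0.0525 to 0.0789 without NeuN-positive 1, 2, 4 or 5 or NeuN-negative 1 or 4. Without healthy NeuN-positive 3 its difference was -3.75, and that of C3ar1 was -3.10 without healthy NeuN-positive 4. Serping1 was at 14.8 ± 7.05 CPM in NeuN-positive and 18 ± 4.32 CPM in NeuN-negative nuclei, a log2 difference of -0.31 ± 0.37 (adjusted p = 0.526). Of the 8 genes, 6 did not overlap between the sorts, where 15.7% of all genes tested separated in this direction.

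In EAE all 8 tested genes were lower in NeuN-positive nuclei, where 14.8% of genes tested were lower. The log2 difference was -3.80 ± 0.58 for C4b (adjusted p = 0.000144), -2.13 ± 0.39 for C1qb (adjusted p = 0.000725) and -2.13 ± 0.43 for C5ar1 (adjusted p = 0.00148). These 3 genes kept the sorts apart in all libraries, a separation found for 5.72% of all genes tested. The others had overlapping libraries, with log2 differences of -1.92 ± 0.39 for C1qc, -1.68 ± 0.41 for C3ar1 (-2.40 without the 3 numbers) and -1.63 ± 0.35 for C1qa. C3 was at -1.44 ± 0.43 (adjusted p = 0.0172) and Serping1 at -1.53 ± 0.50 (adjusted p = 0.0287). C3 had an adjusted p of 0.0586 to 0.0703 without NeuN-positive 1, 4 or 5 or NeuN-negative 1. Serping1 had 0.0501 to 0.0814 without NeuN-positive 1, 4 or 5 or NeuN-negative 1, 3 or 4, and 0.0583 without the 3 numbers of high mitochondrial share. Without NeuN-negative 3 the difference of C4b was -3.22.

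Because the sorts of a number were taken as a pair, the NeuN-positive level was also set against the NeuN-negative level of the same number. In healthy mice the median of this share was 7.02% for C1qa, 5.08% for C1qb, 5.63% for C1qc and 3.66% for C4b. In EAE the medians were 32.8%, 26.4%, 31.1% and 9.49%. For C1qa the 5 EAE pairs gave 20.7%, 94.3%, 32.8%, 57.4% and 22.8%. EAE 2 was the highest and EAE 4 the next, and the same order held for C3, at 18.9%, 113%, 40.2%, 51.3% and 30.1%. In the same pairs Csf1r, a receptor gene of microglia and macrophages, was at 10.3%, 133%, 17.5%, 34.8% and 11.9%, and its healthy median was 3.55%. Lyz2, a lysozyme gene of myeloid cells, was at 16.4%, 223%, 58.0%, 73.4% and 33.3%. For C4b the EAE shares were 9.5%, 38.4%, 6.1%, 9.5% and 5.7%. The median of Serping1 ran the other way, at 85.3% in healthy mice and 34.8% in EAE. Its ranges overlapped, 33.9% to 160% in healthy and 21.3% to 98.8% in EAE pairs.

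**Figure D3:**
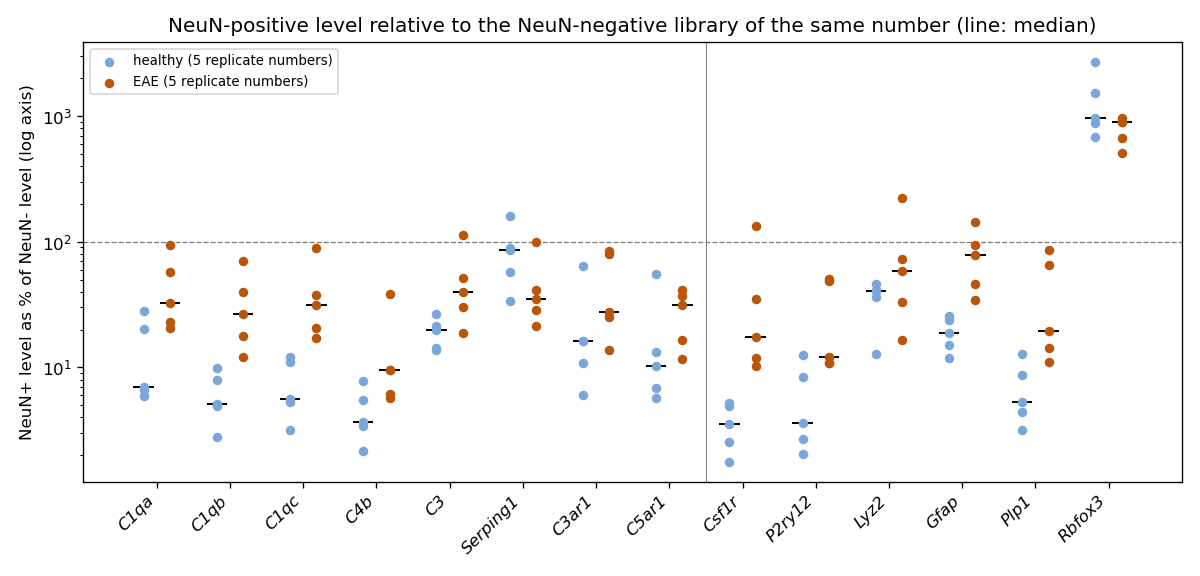
NeuN-positive level as a percentage of the NeuN-negative level of the same replicate number, on a log axis, for complement genes and marker genes in healthy and EAE mice. Points are the 5 pairs per condition; C1qa moved from a median of 7.02% to 32.8% and C4b from 3.66% to 9.49%, with EAE 2 the highest EAE pair of both.

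Whether EAE changed a gene more in one sort than in the other was tested as an interaction over the 20 libraries, without pairing of the sorts. C1qc was called, with a log2 effect 2.11 ± 0.51 larger in NeuN-positive nuclei (adjusted p = 0.0273), where 1.74% of 20444 genes were called in this direction. Over all genes 356 were called in this direction and 168 in the other, and 236 and 236 with DESeq2 size factors. The adjusted p of C1qc was 0.0515 to 0.0795 without NeuN-positive 1, 2 or 5 or NeuN-negative 1 or 2 of the healthy mice, or NeuN-positive 1, 2 or 5 or NeuN-negative 4 of the EAE mice. C1qb was at 1.95 ± 0.58 (adjusted p = 0.0644) and C1qa at 1.47 ± 0.53 (adjusted p = 0.127). With the replicate number as a block 3 genes were called, C1qc, C1qb (2.21, adjusted p = 0.0053) and C1qa (1.74, adjusted p = 0.0312), among 1992 genes called in this direction. C3 had a difference of 1.05 ± 0.53 (adjusted p = 0.296), and C4b, C3ar1 and C5ar1 had 0.74 ± 0.69, 0.59 ± 0.69 and 0.40 ± 0.82. Serping1 was the only one with a negative value, at -1.12 ± 0.65 (adjusted p = 0.373). The median of all genes in this comparison was 0.15, and it was -0.11 with DESeq2 size factors. Csf1r had a difference of 2.46 ± 0.62 (adjusted p = 0.032) in the same fit. Markers of several cell types lay on the same side as C1qc. All 12 microglia, all 12 oligodendrocyte and all 12 astrocyte markers had positive differences, with medians of 1.72, 1.83 and 1.48, and 3, 4 and 1 of them were called higher. T cell markers lay on the other side, with 2 of 11 positive, a median of -1.15 and 2 called lower. The median of the 8 complement genes was 0.89. The part of these cell types in the difference of C1qc was not tested.

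Levels of different genes were compared per kilobase of annotated exon. In healthy NeuN-positive nuclei the mean level was highest for Serping1, at 6.36 CPM per kb, close to C1qa at 5.92, C1qb at 5.67 and C4b at 4.76 CPM per kb, whose libraries overlapped. C1qc (1.71) and C3 (1.41) came next, and C3ar1 (0.27), C5ar1 (0.18) and Cfb (0.11) were lowest. In EAE NeuN-positive nuclei C1qa (102) and C1qb (97.0) led, followed by C1qc at 34.3, C3 at 22.3, C4b at 18.9 and Serping1 at 16.1 CPM per kb. These places depend on the length used. Per kilobase of the longest transcript Serping1 was at 21.1, above C4b at 19.99, and C1qc was at 55.1 CPM per kb in EAE NeuN-positive nuclei. In healthy NeuN-negative nuclei C4b (103) and C1qb (87.9) were the highest, before C1qa (46.3) and C1qc (25.5). In EAE NeuN-negative nuclei the order was C1qb (383), C1qa (283), C4b (239), C1qc (117), C3 (55.2) and Serping1 (41.1 CPM per kb). The libraries of C4b overlapped there with those of C1qa and C1qb. The receptors stayed at 9.62 for C3ar1 and 7.65 for C5ar1, and Cfb at 0.24 CPM per kb.

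Markers of other cell types moved with these genes. In EAE NeuN-positive nuclei 9 of 11 tested monocyte and macrophage markers, 6 of 7 neutrophil, 5 of 7 T cell, 5 of 6 fibroblast and 5 of 11 microglia markers rose, where 6.55% of all genes tested were called higher. Of 12 oligodendrocyte markers 2 rose, and of 12 astrocyte markers 1 rose and 1 fell, where 3.68% of all genes were called lower. Summed over the 12 oligodendrocyte markers, the level was 3932 to 44285 CPM (median 5147) in healthy libraries. In EAE it was 11233 to 92613 CPM (median 14471), and the ranges overlapped. Of these 12 markers 6 had positive log2 changes, with a median over the 12 of 0.22. The summed level of the 12 monocyte and macrophage markers was 4.97 to 26.3 CPM in healthy and 298 to 1718 CPM in EAE NeuN-positive nuclei. That of the 12 microglia markers was 29.2 to 56.4 and 151 to 244 CPM. Of these markers only Cxcr2, of neutrophils, was at 0 in a whole group, the healthy NeuN-positive one. None of the 14 neuron markers was called by edgeR in that comparison, where 2 were higher and 1 lower at an unadjusted p under 0.05. Their sum was 37950 to 66614 CPM in healthy and 37146 to 67503 CPM in EAE. The part of these cell types in the rise of the complement genes was not tested.

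In EAE NeuN-negative nuclei 12 of 12 monocyte and macrophage, 11 of 11 T cell, 7 of 8 neutrophil, 5 of 6 B cell and 5 of 6 fibroblast markers rose, where 15.1% of all genes tested were called higher. Of the microglia markers 2 of 12 rose, a share near that of all genes, and 1 fell. Markers of oligodendrocytes fell for 7 of 12 genes, with a median log2 change of -1.64, and those of oligodendrocyte precursors for 4 of 6, with a median of -1.03, where 12.6% of all genes were called lower. Of the 12 oligodendrocyte genes 3 had positive changes. Their summed level did not fall, with 41260 to 67293 CPM (median 50460) in healthy and 33185 to 94685 CPM (median 59715) in EAE. The summed monocyte and macrophage level was 42.9 to 90.7 CPM in healthy and 618 to 2479 CPM in EAE, and the summed microglia level was 667 to 848 and 394 to 1829 CPM. Astrocyte markers fell for 4 of 12 genes, and the log2 change of Gfap was -0.19 ± 0.41 (adjusted p = 0.752). In NeuN-positive nuclei the log2 level of Gfap rose by 1.5 ± 0.31 (adjusted p = 0.00809). The part of these cells in the levels of C3 and C4b was likewise not tested.

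Csf1r and the C1q chains did not move by the same amount. The log2 change of Csf1r was 0.90 ± 0.48 (adjusted p = 0.163) in NeuN-negative and 3.27 ± 0.35 (adjusted p = 5.77e-05) in NeuN-positive nuclei. The ratio of C1qa to Csf1r within a library does not depend on scaling. In healthy NeuN-negative libraries it was 0.181, 0.236, 0.238, 0.255 and 0.293, and in EAE NeuN-negative libraries 0.840, 2.91, 0.618, 1.54 and 0.879. The ranges did not overlap, and EAE 2 and EAE 4 were the highest. In NeuN-positive libraries the ratio ran from 0.500 to 1.29 in healthy and from 1.16 to 2.53 in EAE mice, which overlapped. For the other chains the NeuN-positive ranges were separate. C1qb to Csf1r ran from 0.497 to 1.19 in healthy and from 1.41 to 2.58 in EAE libraries. C1qc to Csf1r ran from 0.410 to 0.521 in healthy and from 0.886 to 1.26 in EAE libraries. Both were also separate in NeuN-negative libraries. The ratio of C4b to Csf1r had a median of 2.83 in healthy and 4.09 in EAE NeuN-negative nuclei, and the ranges overlapped, 2.12 to 4.69 and 2.05 to 6.52. In NeuN-positive nuclei the median was 3.84 in healthy and 1.88 in EAE mice, and the ranges were separate, with 2.18 to 5.02 in healthy and 1.05 to 1.98 in EAE libraries. The ratio of Serping1 to Csf1r in NeuN-positive nuclei also had separate ranges, 0.980 to 2.73 in healthy and 0.171 to 0.772 in EAE. These ratios were computed after the levels were seen and are given as descriptions.

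The genes whose log2 CPM was most like that of each member over the 20 libraries were looked for among 13330 genes. For C1qa they were Fcer1g, a signalling chain of Fc receptors (Pearson r = 0.990), Laptm5, a lysosomal membrane protein gene of blood cells (0.987), and Mpeg1, the perforin-2 gene of macrophages (0.986). For C1qb they were Vamp8, Tgfbi and the Fc receptor gene Fcgr1 (0.984 to 0.988), and for C1qc Mpeg1, Fcgr3 and Tgfbi (0.984 to 0.988). C3 was most like Arhgdib, Cyba, a subunit gene of the phagocyte oxidase, and Tyrobp, a myeloid adaptor gene (0.980 to 0.985). C3ar1 was most like C3 itself (0.973), and C5ar1 most like Cytip, Fgr and the scavenger receptor gene Msr1 (0.968 to 0.974). C4b was most like Arhgap45, Cyth4 and Stab1 (0.977 to 0.984). Serping1 differed, with Lgals1, Ltf and Aldh1a2 at 0.903 to 0.921. The genes nearest to Cfb reached 0.827 to 0.834, and 0.01 to 0.54 without the 3 numbers of high mitochondrial share. All these values share the 4 groups and the libraries' depth.

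A list of 52 other complement genes was read beside the members. In EAE NeuN-positive nuclei 30 of them were tested and 7 rose, with a median log2 fold change of 0.42, where 6.55% of all genes tested were called higher. No gene was called lower by edgeR, where 2 were lower at an unadjusted p under 0.05, and voom called 11 higher and 5 lower. Of the 7 tested receptor genes 4 rose, and of the 9 initiation genes 2 rose. Itgax rose by 5.44 ± 0.60 (adjusted p = 6.39e-05), Itgam by 4.94 ± 0.52 (adjusted p = 5.01e-05) and Itgb2 by 4.62 ± 0.71 (adjusted p = 0.000926) on the log2 scale. They encode the chains of the leukocyte integrins that bind cleaved C3. Itgax had only 12 counts over the 5 healthy NeuN-positive libraries, a mean of 0.129 CPM against 5.45 CPM in EAE, and was tested because of its EAE libraries. Itgam shares 3450 exon bases with the annotated gene Gm49368, which has no row in the deposited count table. C1ra, C1s1 and Cd93, which also rose, are named after their values were seen. C1ra and C1s1, the proteases of the C1 complex, were at 3.87 ± 0.65 (adjusted p = 0.0017) and 3.71 ± 0.59 (adjusted p = 0.00115). They had only 39 and 64 counts over the 5 healthy NeuN-positive libraries, means of 0.485 and 0.843 CPM. Both were thus tested because of their EAE libraries. Cd93, an adhesion receptor gene once proposed as a C1q receptor, was at 2.03 ± 0.46. C1s1 overlaps an antisense gene, Gm16567, by 576 exon bases, and the use of strand in counting is not given in the sources used here.

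**Figure D4:**
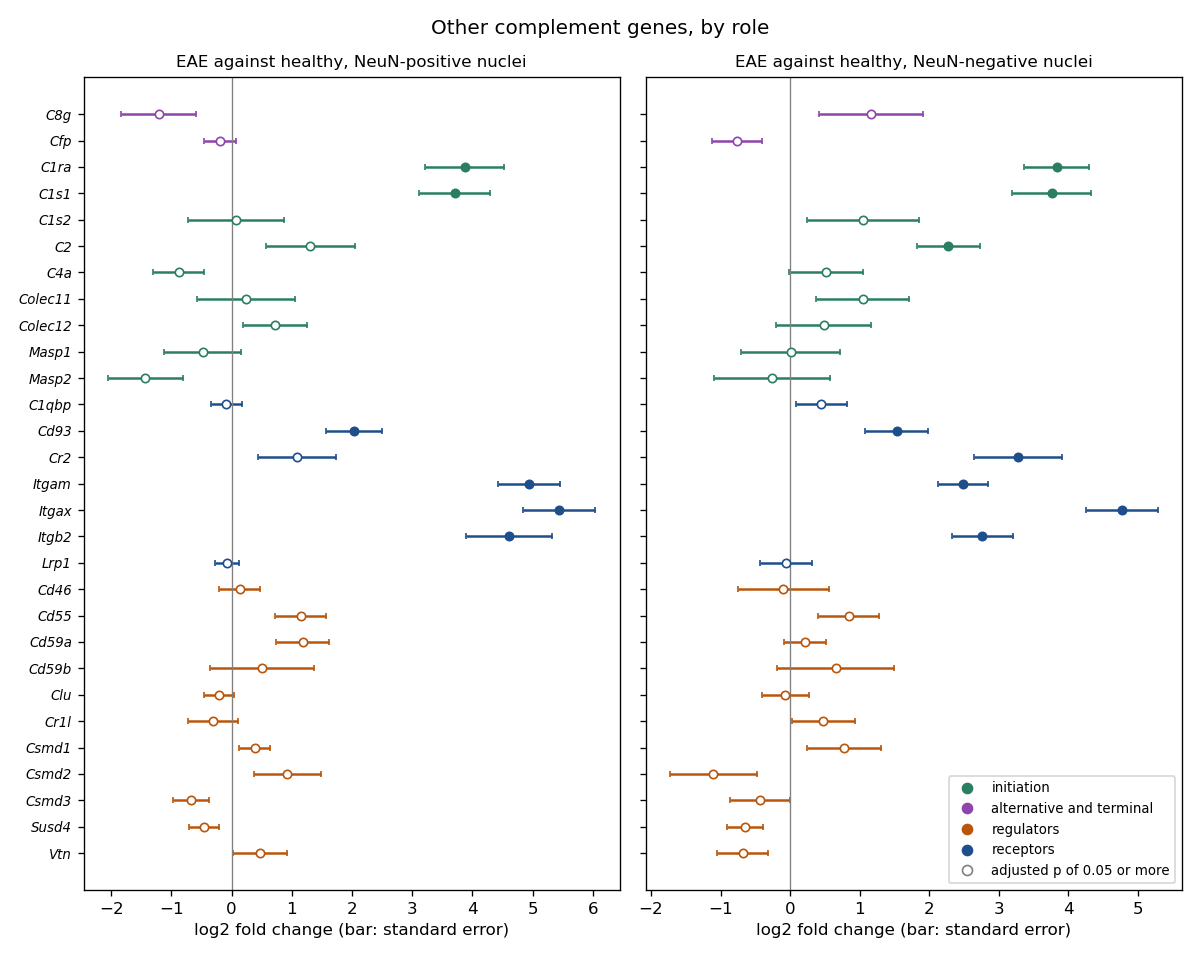
Log2 fold change with its standard error, EAE against healthy, in NeuN-positive (left) and NeuN-negative nuclei (right), for 29 of the other complement genes tested in both sorts, coloured by role. Filled points had an adjusted p under 0.05, 6 on the left and 8 on the right, and the highest point is Itgax in both panels, at 5.44 and 4.78.

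In EAE NeuN-negative nuclei 39 of the 52 were tested and 12 rose, with a median log2 fold change of 1.04, where 15.1% of all genes tested were called higher. No gene was called lower in the main edgeR fit, where 2 were lower at an unadjusted p under 0.05. Voom called 18 higher and 4 lower. With edgeR 2 were lower in each of 3 other settings. These were omission of the 3 numbers of high mitochondrial share, that share as a covariate, and a fit on all 20 libraries. With no count filter 1 was lower. Of the receptor genes 6 of 8 rose, of the initiation genes 3 of 10 and of the alternative and terminal genes 1 of 6, and the roles were not compared by a test. The largest fitted changes were those of Itgax (4.78 ± 0.51), Cpn2, a carboxypeptidase N subunit gene (4.35 ± 0.98), and C6, a component of the membrane attack complex (4.14 ± 0.97), the last of which was at 0.287 CPM in healthy and 3.79 CPM in EAE libraries. Cpn2 and C6 had 27 and 22 counts over the 5 healthy NeuN-negative libraries and were tested because of their EAE libraries. With the mitochondrial share as a covariate the change of Cpn2 was 1.92 (adjusted p = 0.223), and Cpn2 had too few counts to be tested without EAE NeuN-negative 3. C2, which encodes the partner of C4 in the C3-cleaving enzyme, rose by 2.28 ± 0.45 (adjusted p = 0.00168) in NeuN-negative nuclei. It had 1.31 ± 0.74 (adjusted p = 0.257) in NeuN-positive nuclei, and it shares 1656 exon bases with Gm20547. C2 is named here for its tie to C4b and Cfb, after its values were seen.

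Between the sorts of healthy mice 34 of the 52 were tested, in NeuN-positive nuclei 5 were higher and 15 lower (22.8% and 23% of all genes tested), with a median log2 difference of -0.93. With the replicate number as a block 8 were higher. Those higher included Susd4, a membrane regulator gene (2.62 ± 0.19), and Csmd1, a large complement control protein gene of neurons (1.84 ± 0.49), besides C4a. C5ar2, which encodes the second receptor of the C5 fragment, had 1 count in the 5 NeuN-positive and 321 in the 5 NeuN-negative libraries. The NeuN-negative level was 318 times the NeuN-positive one, with a 95% interval of 56.7 to 12598.5 that covers counting error only. Itgam (-4.62 ± 0.41) and Itgax (-3.77 ± 0.53) were also lower. In EAE 37 were tested, 4 were higher and 13 lower (15.5% and 14.8% of all genes tested), with Susd4 at 2.87 ± 0.36, Csmd2 at 2.54 ± 0.55 and Csmd1 at 1.48 ± 0.42 higher, and C5ar2 at -3.65 ± 0.86 and Itgax at -3.02 ± 0.50 lower. Cpn1, also lower at -3.29 ± 1.2 (adjusted p = 0.044), rested on 0.510 and 3.73 CPM. It was not called in 11 of 19 alternatives, the replicate block (adjusted p = 0.0645) among them, and its log2 difference ran from -4.25 to -1.84 with adjusted p up to 0.227. Without EAE NeuN-positive 4, 8 genes of the list were lower. The fourth higher gene was Cfp, named after its values were seen, which encodes properdin, the stabiliser of the alternative pathway enzyme. It was at 164 ± 23.2 CPM in NeuN-positive and 56.5 ± 30.1 CPM in NeuN-negative nuclei of EAE mice, a log2 difference of 1.38 ± 0.34 (adjusted p = 0.0058). In the interaction test 42 of the 52 were tested, and Itgam was called, at 2.59 ± 0.59 (adjusted p = 0.0204). No gene of the list was called without healthy NeuN-positive 1 or 2, EAE NeuN-positive 2 or 5 or healthy NeuN-negative 2, and with the replicate block 3 were called higher and 1 lower.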

How the data were processed

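The authors deposited 1 table of raw counts, with Ensembl genes in rows and libraries in columns. STAR 2.4, DESeq2, GRCm39 and mm10 are named in the submitters' processing notes, with no role for any of them in the sources used here. The counter, its annotation and its strand setting are not stated there. RNA was polyadenylated RNA of sorted nuclei, per the labels' protocols. Positions and exon lengths are from GENCODE M21 (GRCm38), matched by gene identifier.

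Groups were taken from the titles. Each comparison of 5 against 5 libraries used only its own 10 libraries, and the interaction all 20, with edgeR 4.0.16 in R 4.3.3 (filterByExpr, TMM, robust quasi-likelihood test). p-values were adjusted by Benjamini-Hochberg over all genes tested, and a gene was called at an adjusted p under 0.05. Similarity used log2(CPM + 1) for genes whose mean log2 CPM was 1 or more. Alternatives were DESeq2 1.42.0 size factors, the DESeq2 Wald test, limma 3.58.1 voom with quality weights, no count filter, at least 1 CPM in at least 5 libraries, a replicate block, a fit on all 20 libraries, the mitochondrial share as a covariate, omission of the 3 numbers whose NeuN-positive share was over 2%, and leaving out each library. The scripts were tested on simulated data.

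Libraries of the same number deviated together between the sorts (correlations of 0.282 to 0.703 in healthy and 0.118 to 0.389 in EAE mice, all over 0.1). Different numbers gave -0.501 to 0.325 and -0.250 to 0.203, so the ranges overlapped. The own number was the best match of 4 of 5 healthy and 5 of 5 EAE NeuN-positive libraries. On this basis numbers were taken to pair the sorts. Of the tests only the replicate block used this pairing, and the main tests did not. Numbers were not paired between EAE and healthy mice (-0.331 to 0.215 in NeuN-positive, -0.342 to 0.274 in NeuN-negative nuclei). The 40 pairs of libraries within groups all differed by more than sampling noise, with a chi-square per gene of at least 11.1.

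The members and lists were chosen with earlier results of these data known. Of the other complement genes, the 3 called genes with the largest change each way in a comparison are named, with the exceptions said in the text, and for each member the 3 genes most like it. The result of 1 gene counted in the list of other complement genes is not reported here. Protein sequences were not used here.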

Additional observations from a re-analysis of the deposited data

Results flagged for a closer look

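In 5 of the 36 groups of a gene's 5 libraries, 1 library stood apart by a gap that took more than 0.71 of the group's range, the limit for 5 samples, which chance passes in about 1 in 20 groups. For C3ar1 these were EAE NeuN-positive 2, high at 29.2 CPM with a gap of 0.849 of the range, and healthy NeuN-positive 4, high at 3.37 CPM with 0.830. For C5ar1 it was healthy NeuN-positive 3, high at 1.68 CPM with 0.895. For Cfb they were EAE NeuN-negative 2, at 9 counts with 0.847, and healthy NeuN-negative 5, at 6 counts against 0 in the others, with a gap of 1.0 of the range. Healthy 3 and EAE 2 are among the 3 numbers with a high mitochondrial share in NeuN-positive nuclei, whose part in these values was not tested. The EAE effect on C1qc differed between the sorts by 2.11 on the log2 scale in the interaction test.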

How the results depend on the processing

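Counts of member genes called in the EAE and sort comparisons stayed within 1.5 times of the reported counts in all alternatives run. In the interaction, where 1 member was called, 2 were called with the DESeq2 Wald test, 5 with voom, 3 with the replicate block and 0 to 2 when 1 library was left out; the cause was not tested. The replicate block changed no other call of a member except Serping1 in EAE NeuN-positive nuclei (1.29, adjusted p = 0.0471). In the EAE comparisons that block ties EAE and healthy libraries of the same number, although numbers were not paired there. C4b in EAE NeuN-negative nuclei was also called with DESeq2 (adjusted p = 0.0111), voom (0.0121) and the mitochondrial share as a covariate (2.15, adjusted p = 0.00859). In 14 of 19 alternatives C4b was not called there, and the same count held for Serping1 in NeuN-positive nuclei.

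The sign of uncalled values turned for C4a between the sorts of EAE mice (-0.09), to 0.48 with voom, 0.25 with no count filter, 0.041 in a fit on all 20 libraries and 0.64 without the 3 numbers, and it was -0.23 to 0.24 when 1 library was left out. In the interaction C3ar1 (0.59) turned to -0.45 without the 3 numbers and was -0.026 to 1.54 without 1 library, and C5ar1 (0.40) was -0.073 to 1.64 without 1 library.

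Over all genes, EAE NeuN-positive calls (1092 higher, 613 lower) were 3820 and 3884 with voom, 1746 and 1247 with DESeq2, and 644 and 140 with the mitochondrial share as a covariate. EAE NeuN-negative calls (2650 and 2220) were 4520 and 4552 with voom, 1476 and 665 with that covariate, and 5618 higher with no filter. Interaction calls (356 and 168) were 3059 and 1867 with voom, 649 and 862 with DESeq2, 1992 and 500 with the block, 183 and 85 with no filter, and 363 and 362 without the 3 numbers. Leaving out 1 library gave 677 to 1721 higher in EAE NeuN-positive nuclei. Between the sorts of EAE mice the median over all genes went from -0.16 to -0.27 with DESeq2 size factors. Depth limits Cfb, C5ar1 and C3ar1, which had 28, 32 and 99 counts over the 5 healthy NeuN-positive libraries.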
